A study of Mus musculus with 6 samples.

Results

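The enzymes that make glycerol 3-phosphate and join it to fatty acids were followed in epididymal white fat of mice lacking CD44 and of wild type mice. The genes were taken by symbol, 9 of the 22322 genes listed: Pck1, Gpd1, Gpat3, Gpat4, Gpam, Agpat2, Lpin1, Dgat1 and Dgat2. All 9 passed the filter on low counts that left 13829 genes for testing. There were 3 CD44 KO and 3 wild type (WT) libraries of messenger RNA, each taken as 1 mouse, and both genotypes had been fed a high fat diet for 17 weeks. The comparison addresses what CD44, a cell surface receptor for hyaluronan, does in white fat. The sources used here do not state strain, age or the kind of knockout allele, and no group on another diet was analysed here. Cd44 itself stood at 1.66 to 3.00 CPM (read counts scaled by TMM library size) in CD44 KO libraries and at 182 to 570 CPM in WT libraries. The labels do not say that the libraries came from separate mice, so p-values measure the spread between these libraries, part of which may be technical.

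Fat cells store fatty acids as triglyceride, in which a glycerol backbone carries the acyl chains. They obtain the backbone as glycerol 3-phosphate, either from glucose or by glyceroneogenesis, the route from pyruvate and oxaloacetate that runs through phosphoenolpyruvate carboxykinase. The acids are then added in steps on the endoplasmic reticulum and the outer mitochondrial membrane: by glycerol 3-phosphate acyltransferases (GPATs), by an acylglycerol phosphate acyltransferase (AGPAT), after removal of the phosphate by a lipin, and by a diacylglycerol acyltransferase (DGAT). Between lipolysis and storage, glyceroneogenesis lets fat tissue return fatty acids to triglyceride.

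Pck1 lies on the plus strand of chromosome 2 (173153048 to 173159273 in GRCm38), 70.3 Mb from Cd44 on the same chromosome. Agpat2 is on chromosome 2 too, 76.2 Mb from Cd44 on its other side. The stretch before the Pck1 gene is shown because this gene had the largest fold change of the 9, and because cyclic AMP is a known inducer of its transcription. It is RefSeq promoter sequence of GRCm38.p6, plus strand, chr2:173152823-173153047, cut before the annotated gene start. The capitals mark TTACGTCA, the cyclic AMP response element described in the rat Pck1 promoter, here 93 bases before the RefSeq start.
Pck1: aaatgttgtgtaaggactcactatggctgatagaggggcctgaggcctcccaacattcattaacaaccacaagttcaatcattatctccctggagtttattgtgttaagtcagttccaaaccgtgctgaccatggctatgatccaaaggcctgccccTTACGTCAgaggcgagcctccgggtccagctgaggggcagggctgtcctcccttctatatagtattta

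RefSeq promoter windows (250 bases before to 50 after a start) were found for 5 of the 9 genes, Pck1, Gpat3, Gpam, Agpat2 and Lpin1, in 6 windows since Gpam has a pair of starts. Both strands were searched. TTACGTCA was in the Pck1 window only among these 6, and in 0.499% of all 32851 windows. The palindrome TGACGTCA was in 0 of the 6, against 1.79% of all windows. GGGCGG was in 4 of the 6 (Pck1, Gpat3, Agpat2 and 1 of the Gpam windows), against 35.7% of all. CCAAT was in the other Gpam window and in 37.4% of all windows. The TATA box letters TATAAA were in 0 of the 6, against 13.6% of all, the E-box CACGTG in 0, against 7.15%, and the C/EBP-type TTGCGCAA in 0, against 0.183%. These are letters in a window and were not tied to the expression values.

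In fat lacking CD44, 2 of the 9 enzyme genes rose and 0 fell. Pck1 was 11-fold and Gpat4 2.59-fold higher than in WT fat. Gpat3, Gpam and Lpin1 stood 2.79-fold to 3.58-fold higher but missed the threshold narrowly, and Dgat1 stood 1.80-fold higher. Gpd1, Agpat2 and Dgat2, the 3 most abundant of these transcripts per length in WT fat, had folds of 0.634 to 0.877 and did not pass. Calls are those of edgeR's quasi-likelihood test at an adjusted p under 0.05 over all 13829 genes. Over all genes it called 1.74% higher and 0.882% lower.

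At an unadjusted edgeR p under 0.05, 5 of the 9 were higher (16.3% of all genes) and 0 lower (14.7%). DESeq2 called 5 of the 9 higher (10.6% of all genes) and 0 lower. In the authors' deposited table the same 5, Pck1, Gpat3, Gpat4, Gpam and Lpin1, are under an adjusted p of 0.05. There 6.07% of the 22322 listed genes are higher and 5.94% lower. These shares include genes below the filter on low counts, so they cannot be set directly against the DESeq2 share over 13829 genes. In CPM, 6 of the 9 had all CD44 KO libraries above all WT libraries (19.7% of all genes tested), and 0 had them all below (18.1%). The median log2 fold change of the 9 was 1.37, against 0.03 over all genes tested. The edgeR counts changed with the library left out. With CD44 KO replicate 1 left out 5 of the 9 were called higher, with CD44 KO replicate 2 left out 1 (Pck1), and with WT replicate 1 left out 3 (Pck1, Gpat3 and Gpat4). With CD44 KO replicate 3, WT replicate 2 or WT replicate 3 left out, 0 were called. Such fits hold fewer libraries, and why the counts changed was not tested.

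**Figure D1:**
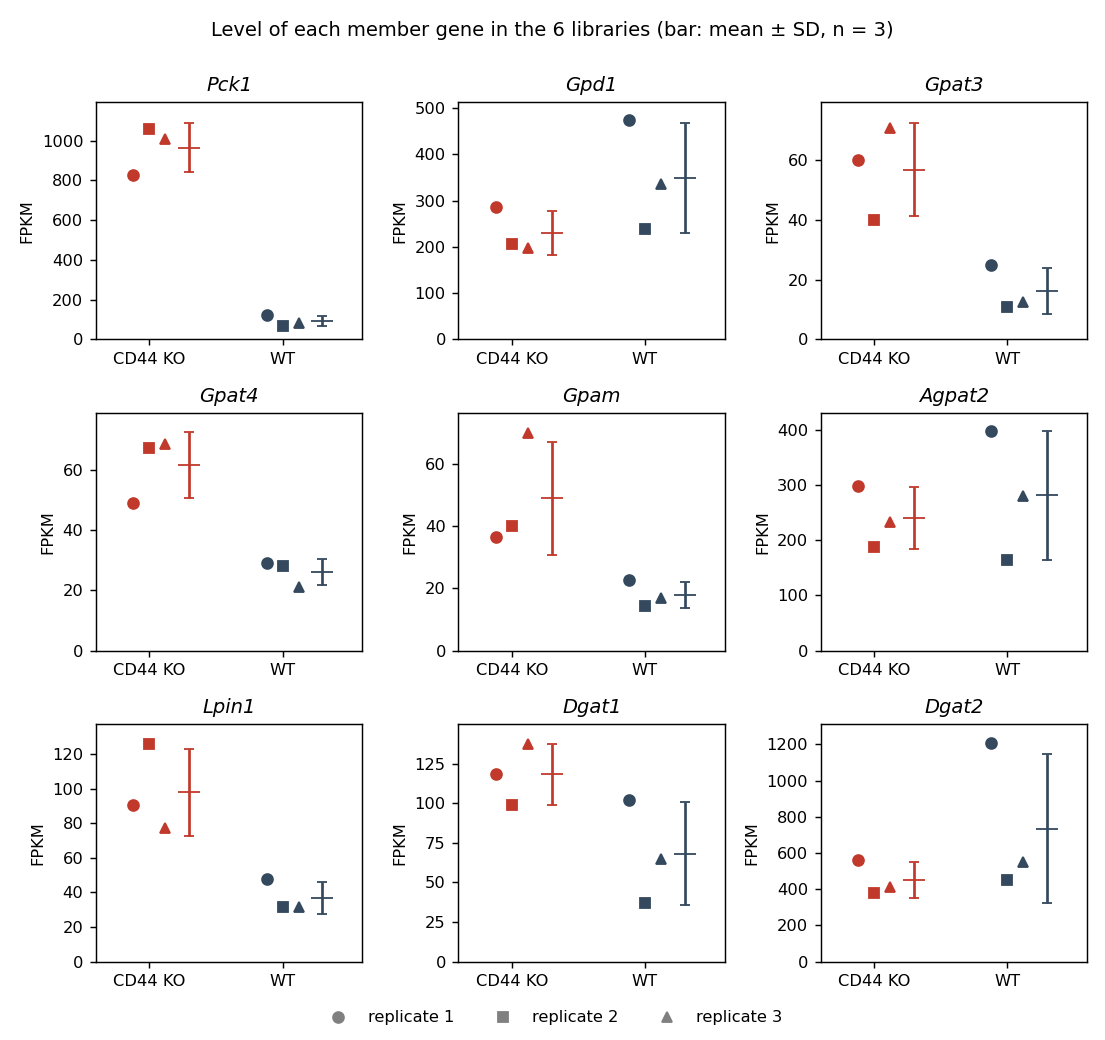
Level of each of the 9 genes in FPKM (fragments scaled to transcript length and library size, on linear axes from 0) in CD44 KO and WT libraries, 1 point per library, with the mean and SD of 3 libraries beside the points. Pck1 sits between 828 and 1059 FPKM in CD44 KO libraries and between 69.3 and 121 in WT libraries, while the Gpd1, Agpat2, Dgat1 and Dgat2 points of the genotypes overlap.

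Pck1 encodes cytosolic phosphoenolpyruvate carboxykinase, which turns oxaloacetate into phosphoenolpyruvate. Its expected counts were 36701, 50157 and 41748 in CD44 KO libraries and 5359, 3415 and 4228 in WT libraries. In FPKM, which scales fragments to transcript length and library size so that genes can be compared, these were 828, 1059 and 1009 in CD44 KO libraries and 121, 69.3 and 84.7 in WT libraries. The lowest CD44 KO library was far above the highest WT library. The log2 fold change was 3.45 (SE 0.31, 95% interval 2.60 to 4.31, edgeR adjusted p 0.0196), a fold with an interval of 6.05 to 19.8. With each library left out in turn it ran from 3.29 to 3.71. The edgeR adjusted p was 0.0785 when CD44 KO replicate 3 was left out, and 0.0988 and 0.189 when WT replicate 2 or 3 was.

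Gpd1 (ENSMUSG00000023019, chromosome 15, 99717515 to 99725005, plus strand) encodes the cytosolic dehydrogenase that makes glycerol 3-phosphate from dihydroxyacetone phosphate, a step that both the glucose route and glyceroneogenesis use. It had 285, 206 and 198 FPKM in CD44 KO libraries and 474, 238 and 336 FPKM in WT libraries. CD44 KO replicate 1 was above WT replicate 2, so the groups overlapped. The difference was a log2 fold change of -0.56 (95% interval -1.40 to 0.28, edgeR adjusted p 0.245). The FPKM of Pck1 divided by that of Gpd1 within a library was 2.90, 5.14 and 5.10 in CD44 KO fat and 0.254, 0.291 and 0.252 in WT fat. Pck1 was thus the more abundant of the pair in each CD44 KO library and the less abundant in each WT library.

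The GPATs attach the acyl chain that starts the chain of esterifications. Gpat3 and Gpat4 encode enzymes of the endoplasmic reticulum and Gpam encodes GPAT1 of the outer mitochondrial membrane. Gpat4 (chromosome 8, 23171265 to 23208346, minus strand) had 49.2, 67.4 and 68.7 FPKM in CD44 KO libraries and 29.0, 28.0 and 21.2 FPKM in WT libraries. The genotypes were apart and the spread within each was small. Gpat4 rose with a log2 fold change of 1.37 (SE 0.22, 95% interval 0.77 to 1.98, edgeR adjusted p 0.039). With each library left out in turn it was 1.27 to 1.52. The edgeR adjusted p was 0.0209 without CD44 KO replicate 1 and 0.0474 without WT replicate 1. It was 0.0747 and 0.123 when CD44 KO replicate 2 or 3 was left out, and 0.151 and 0.236 when WT replicate 2 or 3 was left out.

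Gpat3 (chromosome 5, 100845713 to 100899102, plus strand) had 60.0, 39.9 and 70.9 FPKM in CD44 KO libraries and 25.1, 11.0 and 12.7 FPKM in WT libraries. The genotypes did not overlap, and WT replicate 1 stood well above the other WT libraries. Gpat3 had a log2 fold change of 1.84 (SE 0.37, 95% interval 0.80 to 2.88, edgeR adjusted p 0.0557). Without WT replicate 1 it was 2.32 with an edgeR adjusted p of 0.0379, and without CD44 KO replicate 1 it was 1.82 with 0.0412. With any other library left out, the edgeR adjusted p of Gpat3 was 0.078 to 0.261. Gpam (chromosome 19, 55067268 to 55127238, minus strand) had 36.7, 40.3 and 70.1 FPKM in CD44 KO libraries and 22.7, 14.5 and 16.9 FPKM in WT libraries. CD44 KO replicate 3 was highest, and the other CD44 KO libraries were also above WT replicate 1. Gpam had a log2 fold change of 1.52 (SE 0.32, 95% interval 0.63 to 2.42, edgeR adjusted p 0.0588), and 1.71 with 0.0272 when CD44 KO replicate 1 was left out. With CD44 KO replicate 3 left out it was 1.18 (edgeR adjusted p 0.137). In the remaining fits that left out 1 library, the edgeR adjusted p of Gpam was 0.0619 to 0.263.

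Agpat2 (ENSMUSG00000026922, minus strand, 26593057 to 26604417) encodes the main AGPAT of fat tissue, and its loss in people causes a congenital lack of fat. It had 299, 187 and 233 FPKM in CD44 KO libraries and 398, 165 and 281 FPKM in WT libraries. The highest and the lowest of the 6 values were both WT. Agpat2 had a log2 fold change of -0.19 (95% interval -1.14 to 0.76, edgeR adjusted p 0.726), and it was 0.16 without WT replicate 1. Agpat2 overlaps Egfl7 on the opposite strand, which had 1058, 1006 and 1562 expected counts in CD44 KO libraries and 1144, 524 and 974 in WT libraries. No source used here states whether the libraries kept strand, so reads of the overlap cannot be told apart, and the same holds for other transcripts annotated across Gpd1, Gpat3 and Gpam.

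Lpin1 (chromosome 12, 16535669 to 16610966, minus strand) encodes lipin 1, the phosphatase that turns phosphatidic acid into diacylglycerol and that mouse fat needs to store triglyceride. It had 90.4, 126 and 77.2 FPKM in CD44 KO libraries and 47.7, 31.7 and 31.5 FPKM in WT libraries. No CD44 KO library was as low as the highest WT library. Lpin1 had a log2 fold change of 1.48 (SE 0.29, 95% interval 0.67 to 2.29, edgeR adjusted p 0.0537). It was called by edgeR without CD44 KO replicate 1 only (1.55, adjusted p 0.0352), among the fits that left out 1 library.

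Dgat1 and Dgat2 encode unrelated enzymes that both add the acyl chain that completes a triglyceride. Dgat1 (chromosome 15, 76502015 to 76511953, minus strand) had 118, 98.9 and 138 FPKM in CD44 KO libraries and 102, 37.2 and 65.1 FPKM in WT libraries. In FPKM CD44 KO replicate 2 was just below WT replicate 1, while in CPM the same pair stood at 200 and 189. The log2 fold change was 0.84 (95% interval -0.16 to 1.84, edgeR adjusted p 0.168), and 0.55 to 1.27 with each library left out in turn. Dgat2 (chromosome 7, 99153658 to 99182719, minus strand) had 564, 379 and 410 FPKM in CD44 KO libraries and 1205, 450 and 549 FPKM in WT libraries. WT replicate 1 held the highest value, and CD44 KO replicate 1 was above both other WT libraries. Dgat2 had a log2 fold change of -0.66 (95% interval -1.80 to 0.48, edgeR adjusted p 0.301), and -0.09 without WT replicate 1.

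In CD44 KO fat the order of mean FPKM was Pck1 (965 ± 122, SD, n = 3), Dgat2 (451 ± 98.8), Agpat2 (240 ± 56.2), Gpd1 (230 ± 48.1), Dgat1 (118 ± 19.4), Lpin1 (97.8 ± 25.1), Gpat4 (61.7 ± 10.9), Gpat3 (56.9 ± 15.7) and Gpam (49.0 ± 18.3). In WT fat Dgat2 led (735 ± 410), then came Gpd1 (349 ± 119), Agpat2 (281 ± 117), Pck1 (91.5 ± 26.4), Dgat1 (68.1 ± 32.5), Lpin1 (36.9 ± 9.30), Gpat4 (26.1 ± 4.20), Gpam (18.0 ± 4.22) and Gpat3 (16.2 ± 7.72). Pck1 was rank 1 in CD44 KO fat and rank 4 in WT fat. The neighbours Agpat2 and Gpd1, Dgat1 and Lpin1, and the 3 GPAT genes overlapped in CD44 KO libraries. In WT libraries the ranges of neighbours in this order overlapped, except those of Agpat2 and Pck1, and of Lpin1 and Gpat4. Read within each WT library, the order was the same apart from Gpam and Gpat3. In WT replicate 1 Gpat3 was above Gpam (25.1 and 22.7 FPKM). In CD44 KO fat the overlapping neighbours also changed order between libraries. Pck1 made up 35.5%, 48.1% and 44.4% of the summed FPKM of the 9 genes in CD44 KO libraries and 4.98%, 6.63% and 6.06% in WT libraries. Dgat2 made up 24.2%, 17.2% and 18.0% in CD44 KO libraries and 49.7%, 43.1% and 39.3% in WT libraries.

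Within WT fat all 9 genes were highest in replicate 1, and 7 of the 9 were lowest in replicate 2. The highest WT library exceeded the lowest by 1.36-fold (Gpat4) to 2.70-fold (Dgat1) in CPM. In CD44 KO fat the highest library was replicate 1 for 3 genes, replicate 2 for 2 and replicate 3 for 4, and the spread was 1.31-fold (Dgat1) to 1.96-fold (Gpam). Mature adipocyte markers took the same order in WT fat: the geometric mean of 10 of them was 1595, 1367 and 1885 FPKM in CD44 KO replicates 1 to 3 and 1235, 545 and 771 FPKM in WT replicates 1 to 3. Summed over the 10 pan-macrophage markers, CPM were 4536, 251 and 825 in CD44 KO replicates 1 to 3 and 4053, 9505 and 6777 in WT replicates 1 to 3. In whole tissue, fewer cells of a type and less RNA per cell cannot be told apart.

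Markers of the cell types in fat were read beside these genes. Of the 10 adipocyte markers, 8 had positive log2 fold changes (median 1.11) and edgeR called 0, while DESeq2 called 5 higher and 1 lower and 5 had an unadjusted edgeR p under 0.05, all higher. Their summed level was 38997 to 50124 CPM in CD44 KO fat and 25155 to 40969 CPM in WT fat. All 10 pan-macrophage markers were negative (median -1.93), with 0 called by edgeR, 1 called lower by DESeq2 and 0 with an unadjusted edgeR p under 0.05, and CD44 KO replicate 1 lay within the WT range of their summed level. Of 7 fibroblast and progenitor markers 6 were negative, with summed levels of 745 to 2474 CPM in CD44 KO fat and 4475 to 6341 CPM in WT fat. Pi16 fell (log2 fold change -1.89, edgeR adjusted p 0.0499). It was called in 6 of 14 alternative fits, which changed the scaling, filter, test or block or left a library out. DESeq2 called 5 of the 7 lower, and 5 had an unadjusted edgeR p under 0.05, all lower. All 5 mesothelial markers were positive, with sums of 32.3 to 53.7 CPM in CD44 KO fat and 3.55 to 10.1 CPM in WT fat. Krt19 rose (log2 fold change 3.66, edgeR adjusted p 0.0473) and was called in 5 of the 14 alternative fits. DESeq2 called all 5 higher, and all 5 had an unadjusted edgeR p under 0.05. The 7 thermogenic markers summed to 5.11 to 6.93 CPM in CD44 KO fat and 8.94 to 19.5 CPM in WT fat, and Ucp1 was at most 0.04 FPKM in CD44 KO fat and 0.39 FPKM in WT fat. Of the 5 thermogenic markers tested, edgeR called 0, DESeq2 called 1 lower, and 2 were lower at an unadjusted edgeR p under 0.05. Over all genes DESeq2 called 10.6% higher and 10.6% lower. At an unadjusted edgeR p under 0.05, 16.3% of all genes were higher and 14.7% lower. The part of these markers in the enzyme genes' differences was not tested.

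Liver and kidney express Pck1 strongly, so their markers were read beside it. The 8 liver markers summed to 3146 to 5765 CPM in CD44 KO fat and 27.0 to 664 CPM in WT fat, most of it Cyp2e1, which fat also expresses. Alb had 2.66, 30.4 and 190 FPKM in CD44 KO replicates 1 to 3 and 0.80, 0.19 and 0.13 FPKM in WT replicates 1 to 3. Pck1 had 828, 1059 and 1009 FPKM in CD44 KO replicates 1 to 3 and 121, 69.3 and 84.7 FPKM in WT replicates 1 to 3. Apoa1 had 0.17, 2.80 and 21.6 FPKM in CD44 KO replicates 1 to 3, Fgb had 0, 1.00 and 12.8 FPKM and Ttr had 0, 0.81 and 6.84 FPKM, and all 3 were at 0 in WT libraries. Apoa2 had 0.52, 0.87 and 5.88 FPKM in CD44 KO replicates 1 to 3 and at most 0.76 FPKM in WT libraries. Tat and G6pc were at most 1.08 and 1.14 FPKM in CD44 KO libraries and at most 0.05 and 0.02 FPKM in WT libraries. Of the 8 liver markers, G6pc was highest in CD44 KO replicate 2 and the others in CD44 KO replicate 3. Of 8 kidney markers, Slc5a2 and Slc22a6 were at 0 in all libraries. Slc34a1, Miox, Umod and Slc5a12 were at most 0.49 FPKM in CD44 KO libraries and at 0 in WT libraries. Kap had 0, 25.2 and 2.46 FPKM in CD44 KO replicates 1 to 3 and was at 0 in WT libraries, and Lrp2 had 0.33, 10.9 and 0.17 FPKM in CD44 KO replicates 1 to 3 and at most 0.03 FPKM in WT libraries. The summed kidney list reached 134 CPM in CD44 KO replicate 2, mostly Lrp2, and 5.40 to 5.96 CPM in the other CD44 KO libraries, against 0.059 to 0.539 CPM in WT libraries. That library also held 11304 CPM of 11 epididymis markers, against 1.94 to 4.21 CPM in the other CD44 KO libraries and 1.19 to 3.48 CPM in WT libraries. Without it Pck1 had a log2 fold change of 3.34 (edgeR adjusted p 0.0348), and without CD44 KO replicate 3 one of 3.43 (0.0785). The part of liver, kidney or epididymis RNA in the enzyme genes' differences was not tested.

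Libraries were also scaled by the geometric mean of the 10 adipocyte markers in place of TMM. The median log2 fold change of all genes was then -1.09, against 0.03 under TMM, and edgeR called 1.29% of all genes higher and 42.4% lower. Pck1 was called higher (log2 fold change 2.43, adjusted p 0.0131). Gpd1, Agpat2 and Dgat2, 3 of the 9, were called lower (-1.55, -1.16 and -1.58, with edgeR adjusted p of 0.0263, 0.0320 and 0.0263), which is no larger a share than that of all genes. Gpat3, Gpat4, Gpam and Lpin1 stood at 0.86, 0.28, 0.45 and 0.47 (log2, with edgeR adjusted p between 0.0599 and 0.531), so the Gpat4 call was lost, and Dgat1 stood at -0.12. Taken relative to the median of all genes, the log2 fold changes were 3.52 for Pck1, 1.95 for Gpat3, 1.56 for Lpin1, 1.54 for Gpam, 1.37 for Gpat4, 0.98 for Dgat1, -0.07 for Agpat2, -0.46 for Gpd1 and -0.49 for Dgat2. Relative to that median, each gene kept the sign it had under TMM. A change of scaling shifts all genes by a nearly common amount, which subtracting the median takes out. The kept signs are therefore no separate support.

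The ratio of each gene to the adipocyte marker mean was also taken in each library. Pck1 FPKM over that mean was 0.519, 0.775 and 0.535 in CD44 KO libraries and 0.0977, 0.127 and 0.110 in WT libraries. For Gpat3 it was 0.0376, 0.0292 and 0.0376 in CD44 KO libraries and 0.0203, 0.0201 and 0.0164 in WT libraries. These 2 of the 9 were higher in each CD44 KO library than in any WT library, as were 2.66% of all genes tested. Dgat2 over that mean was 0.353, 0.277 and 0.218 in CD44 KO libraries and 0.976, 0.827 and 0.713 in WT libraries. Dgat2, Gpd1 and Agpat2, 3 of the 9, were lower without overlap, as were 56.2% of all genes tested, so this count is below the background. The ratios of Gpat4, Gpam, Lpin1 and Dgat1 overlapped between the genotypes. The marker mean itself stood higher in each CD44 KO library than in any WT library, so a ratio shows unequal differences and not which side differs.

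**Figure D2:**
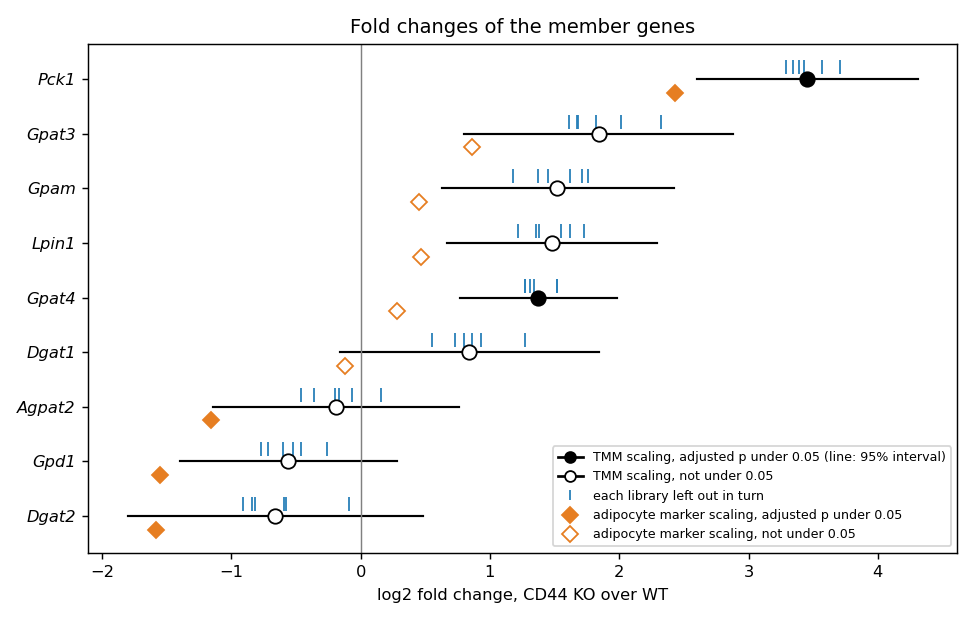
Log2 fold change of CD44 KO over WT for each gene under TMM scaling (circles, with 95% intervals; filled when the edgeR adjusted p was under 0.05), with each library left out in turn (ticks) and under scaling by 10 adipocyte markers (diamonds, filled likewise). Pck1 stays to the right of 2 in each fit, while Gpd1, Agpat2 and Dgat2 lie between -1.58 and -1.16 under adipocyte marker scaling, where the median of all genes was -1.09 and 42.4% of all genes were called lower.

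Shares within an enzyme family do not depend on how libraries are scaled. They were computed from FPKM for 8 gene and family pairs and compared by a two-sided exact permutation test over the 6 libraries, which cannot give a p below 0.1. The smallest value, 0.1, was reached by 4 of the 8 shares (Benjamini-Hochberg adjusted p 0.2, exact permutation test), those of Pck1, Gpd1, Lpin1 and Dgat2. Dgat2 made up 82.7%, 79.3% and 74.9% of DGAT transcripts in CD44 KO libraries and 92.2%, 92.4% and 89.4% in WT libraries. The difference of the means was -12.4 percentage points, and the genotypes did not overlap. DGAT transcripts in all summed to 682, 478 and 548 FPKM in CD44 KO libraries and 1307, 488 and 615 FPKM in WT libraries.

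Lpin1 made up 94.0%, 95.1% and 94.8% of lipin transcripts in CD44 KO libraries and 83.9%, 75.3% and 80.0% in WT libraries. All 3 CD44 KO libraries were above all WT libraries, and Lpin2 and Lpin3 together were the smaller part in both. Lpin2 had 3.61, 3.09 and 2.66 FPKM in CD44 KO libraries and 5.01, 8.16 and 5.45 FPKM in WT libraries. Pck1 made up 98.4% ± 0.171 of the sum of Pck1 and Pck2, its mitochondrial counterpart, in CD44 KO fat and 88.6% ± 3.02 in WT fat (SD, n = 3). Gpd1 made up 92.6% ± 1.89 of the sum of Gpd1 and Gpd1l in CD44 KO fat and 97.0% ± 1.18 in WT fat.

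The shares of the 3 GPAT genes overlapped between the genotypes, and their summed FPKM did not. Summed with Gpat2, which was at most 0.27 FPKM in CD44 KO libraries and 0.09 FPKM in WT libraries, they reached 146, 148 and 210 FPKM in CD44 KO libraries and 76.8, 53.4 and 50.8 FPKM in WT libraries. Gpam made up 28.6% ± 4.31 of the sum in CD44 KO fat and 29.9% ± 3.09 in WT fat (SD, n = 3, exact permutation p = 0.8). Gpat3 made up 34.0% ± 7.01 in CD44 KO fat and 26.1% ± 6.16 in WT fat (exact permutation p = 0.2). Gpat4 made up 37.3% ± 7.20 in CD44 KO fat and 44.0% ± 7.59 in WT fat (exact permutation p = 0.3). Agpat2 made up 58.4% ± 7.38 of the AGPAT transcripts in CD44 KO fat and 64.6% ± 8.97 in WT fat (exact permutation p = 0.4). The Agpat2 shares overlapped as well, and a p that misses the threshold in groups of 3 does not show that they were alike.

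**Figure D3:**
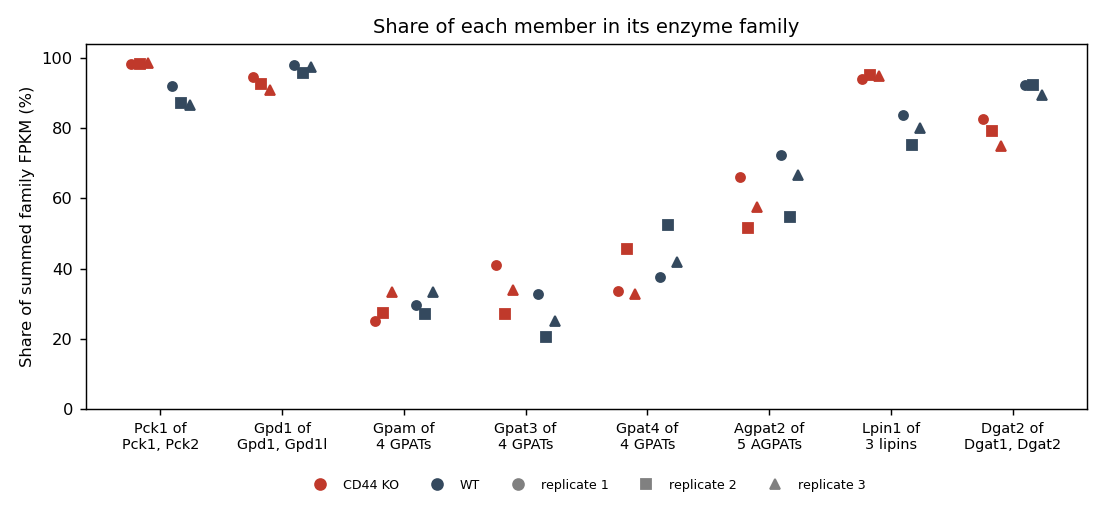
Share of each gene in the summed FPKM of its enzyme family (percent, linear axis from 0), with CD44 KO libraries to the left of WT libraries and 1 point per library. The Pck1, Gpd1, Lpin1 and Dgat2 points of the genotypes are apart, with Dgat2 at 74.9% to 82.7% in CD44 KO and 89.4% to 92.4% in WT, while the GPAT and Agpat2 points overlap.

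Around these enzymes, genes linked to the supply of glycerol 3-phosphate were tested as a list of 12. The list also holds Gpd2, whose enzyme uses glycerol 3-phosphate up, so its calls are no measure of supply. Of these, 3 rose (1.74% of all genes) and 0 fell (0.882%) in CD44 KO fat (10 positive, median log2 fold change 0.59). DESeq2 called 3 higher (10.6% of all genes) and 1 lower (10.6%). An unadjusted edgeR p under 0.05 was seen for 4 higher (16.3% of all genes) and 2 lower (14.7%). Those 2, singled out after their values were seen, were Got1, an aspartate aminotransferase gene (log2 fold change -1.27), and Pdk4, a relative of Pdk2 (-1.03). Pdk2, a kinase that holds back pyruvate dehydrogenase, had 203 ± 67.1 CPM in CD44 KO fat and 43.4 ± 11.2 CPM in WT fat (SD, n = 3), a log2 fold change of 2.23 with an SE of 0.32 (edgeR adjusted p 0.0337). Gpd2, the mitochondrial enzyme that oxidises glycerol 3-phosphate, had 60.5 ± 11.7 CPM in CD44 KO fat and 21.1 ± 2.12 CPM in WT fat (log2 fold change 1.52, edgeR adjusted p 0.0266). Gpd1l, a relative of Gpd1, had 79.1 ± 7.93 CPM in CD44 KO fat and 43.0 ± 3.61 CPM in WT fat (log2 fold change 0.88, edgeR adjusted p 0.0401). Under adipocyte marker scaling Gpd2 stood at 0.40 and Gpd1l at -0.28, and neither was called. The Gpd1l call was also lost without the filter on low counts, where its log2 fold change was 0.86. All 5 genes listed for glycolytic enzymes between phosphoenolpyruvate and dihydroxyacetone phosphate were lower without overlap (median -0.72), as were 18.1% of all genes tested. Of these 5, edgeR called 0 and DESeq2 called 5 lower (10.6% of all genes). All 5 were lower at an unadjusted edgeR p under 0.05 (14.7% of all genes). The lowest p among them belonged to Pgam1 (log2 fold change -0.61, adjusted to 0.0739 by edgeR), Eno1 (-0.80, 0.0807) and Tpi1 (-1.04, 0.0916).

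Other isozymes of the pathway went both ways, with 0 of 8 tested called by edgeR (median -0.35). DESeq2 called 1 higher (10.6% of all genes) and 3 lower (10.6%). An unadjusted edgeR p under 0.05 was seen for 1 higher (16.3% of all genes) and 4 lower (14.7%). The monoacylglycerol acyltransferase gene Mogat1 had 38.1 ± 15.2 CPM in CD44 KO fat and 7.06 ± 4.07 CPM in WT fat (log2 fold change 2.43 with an SE of 0.48, edgeR adjusted p 0.0550). Its relative Mogat2 had 1.29 ± 0.267 CPM in CD44 KO fat and 10.8 ± 9.38 CPM in WT fat (log2 fold change -3.05 with an SE of 0.68, edgeR adjusted p 0.0641). Neither overlapped between genotypes in CPM. Of all genes tested, 19.7% were likewise higher without overlap and 18.1% lower. The Mogat2 value rests in part on WT replicate 1, without which its log2 fold change was -2.04, and on log2(FPKM + 1) with limma it was -1.80. Lpin2 stood at -0.82 (edgeR adjusted p 0.0876).

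Phosphatidic acid and diacylglycerol are also the source of phospholipids. Of 16 genes of that branch edgeR called 0 and DESeq2 called 1, lower (10.6% of all genes), and the median was 0.09. An unadjusted edgeR p under 0.05 was seen for 1 higher (16.3% of all genes) and 2 lower (14.7%). Pisd, which makes phosphatidylethanolamine in mitochondria, Ptdss2, a phosphatidylserine synthase, and Pcyt1a, which sets the pace of phosphatidylcholine synthesis, stood at -0.67, 0.41 and -0.74 on the log2 scale, where edgeR gave an adjusted p of 0.0715, 0.128 and 0.155. Of 4 tested genes for seipin, the fat storage-inducing proteins and the phosphatase that activates lipins, edgeR called 0 and DESeq2 called 1 higher (10.6% of all genes). The same number had an unadjusted edgeR p under 0.05, also higher (16.3% of all genes). Fitm2, needed for lipid droplets to form at the endoplasmic reticulum, stood at 1.11 (edgeR adjusted p 0.0784), and Ctdnep1 and Cnep1r1, which encode the phosphatase and its partner, stood at -0.12 and -0.28 (0.603 and 0.245).

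Of 14 genes for transcription factors and cofactors of fat and of Pck1, 2 rose (1.74% of all genes) and 0 fell (12 positive, median 0.78). DESeq2 called 6 higher (10.6% of all genes), and 8 had an unadjusted edgeR p under 0.05, all higher (16.3%). The coactivator gene Ppargc1a had 5.78 ± 1.65 CPM in CD44 KO fat and 1.22 ± 0.314 CPM in WT fat (SD, n = 3; log2 fold change 2.24, edgeR adjusted p 0.0438). Mlxipl, which encodes the carbohydrate-responsive factor ChREBP, had 40.0 ± 8.29 CPM in CD44 KO fat and 11.0 ± 4.50 CPM in WT fat (log2 fold change 1.86, edgeR adjusted p 0.0453). The Ppargc1a call was lost under adipocyte marker scaling, without the filter on low counts, with limma voom and on log2(FPKM + 1), where its log2 fold change was 0.72, and the Mlxipl call was lost under adipocyte marker scaling and without the filter. Srebf1, which encodes the sterol-responsive factor SREBP1, stood at 1.40 with an edgeR adjusted p of 0.0557. The 5 calls over these 6 lists also changed with the library left out: edgeR called 12 genes of the lists when CD44 KO replicate 1 was left out. It called 5 when WT replicate 1 was left out, where Gpd1l and Ppargc1a were lost and Mogat1 and Srebf1 were gained. It called 0 when one of the other 4 libraries was left out.

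**Figure D4:**
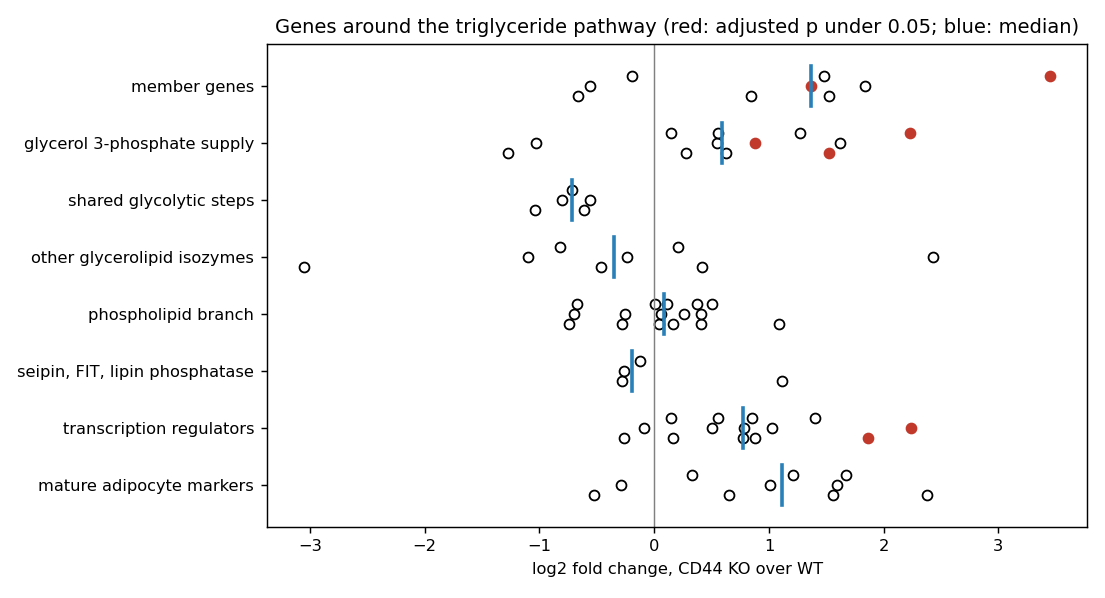
Log2 fold change of CD44 KO over WT for each tested gene of the 9 enzyme genes, of 6 lists around them and of the adipocyte marker list (points; red when the edgeR adjusted p was under 0.05; blue bars are medians). The enzyme genes have a median of 1.37 and the adipocyte markers of 1.11, while the 5 glycolytic genes all lie below 0.

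The genes whose pattern over the 6 libraries was most like that of a called enzyme gene were found by the root mean square difference of centred log2 CPM (prior count 2) among 13221 genes averaging at least 1 CPM. The prior count shrinks the changes of low genes, so a gene near 0 in WT fat can lie close to one with a smaller fold. Nearest to Pck1 were Smim5 (0.150), Baiap2l2 (0.219), Klhdc9 (0.285), Eva1c (0.291) and Chdh (0.302), the last of which encodes choline dehydrogenase. Smim5 had 4.75, 6.31 and 6.02 CPM in CD44 KO libraries and 0.766, 0.377 and 0.470 CPM in WT libraries. Nearest to Gpat4 were Vamp2 (0.054), Tshz2 (0.063), Ctif (0.081), Eif4a2 (0.092) and Krba1 (0.096). Vamp2 had 58.6, 85.7 and 94.1 CPM in CD44 KO libraries and 37.6, 30.5 and 27.4 CPM in WT libraries. In each of these the genotypes were apart, with CD44 KO replicate 1 the lowest CD44 KO library. Pck1 and Gpat4 have the same traits, so choosing the genes nearest to them made this outcome likely in advance.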

How the data were processed

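Per the labels' protocols, RNA of the 3 CD44 KO and 3 WT fat samples was selected with oligo(dT) beads before short-read sequencing. Tools named in the submitters' processing notes are RSEM, StringTie 1.3.1, HISAT2 and DESeq2, with no role stated. Genome build, annotation and strandedness: not given in the sources used here. The authors deposited expected counts (estimated counts, not scaled) and FPKM rounded to 2 decimals per gene and library. Their comparison table, also deposited, adds a log2 fold change of FPKM means, p-values and adjusted p-values.

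After rounding to whole numbers, these counts went into edgeR 4.0.16 (R 4.3.3; filterByExpr, TMM, robust glmQLFit, glmQLFTest, Benjamini-Hochberg over 13829 genes). DESeq2 1.42.0 and limma 3.58.1 (voom, and log2 of FPKM with a pseudocount of 1) gave alternatives, beside other scalings, no filter, a replicate block and each library left out. SE is the absolute log2 fold change over the square root of F, and 95% intervals use the 4 residual degrees of freedom, fewer than the moderated test uses, so they are wider than its p implies. Library totals were 15543317 to 18765009, and members had 569 to 50157 counts, so counting error was at most 4.19%. It covers counting only, since PCR copies are not independent molecules.

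Positions are of GENCODE M21 (GRCm38), matched by identifier for all 9 genes. The labels give no sign that replicate numbers pair the libraries, so the main fit had no block. The members, the lists and the naming rule were chosen with earlier results of these data known. Named are the 9 genes, called genes of each list or else up to 3 of lowest p, and the 5 nearest genes to each called member. Of 6 genes listed for seipin and its partners, 1 was not analysed here under its symbol.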

Additional observations from a re-analysis of the deposited data

How the results depend on the processing

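The 9 log2 fold changes kept their direction under 14 alternatives, except Agpat2 (-0.46 to 0.16 with a library left out, positive without WT replicate 1) and Dgat1 (-0.12 under adipocyte marker scaling). Among named pathway genes Gpd1l and Ptdss2 turned negative under that scaling (-0.28 and -0.68). Members called higher were 2, and 5 by DESeq2, 4 by limma voom, 1 under adipocyte marker scaling, 0 with the replicate number as a block, and 0 to 5 with a library left out. Members called lower were 0, and 3 under adipocyte marker scaling. Genes called higher were 240, and 1463 by DESeq2, 145 without the filter, 0 with the block, and 0 to 1007 with a library left out. Genes called lower were 122, and 1463 by DESeq2, 5868 under adipocyte marker scaling, 0 with the block, and 0 to 1363 with a library left out. Pathway list genes called were 5, and 21 by DESeq2, 25 under adipocyte marker scaling, 2 without the filter, 0 with the block, and 0 to 12 with a library left out. Where libraries were left out, fewer remained in the fit, and the cause of the other changes was not tested. The Gpam share difference was -1.34 percentage points, and -3.75 to 0.413 with a library left out. With a library left out the Gpat3 share difference was 4.37 to 11.4 (all libraries 7.92), that of Gpat4 -10.8 to -2.41 (-6.63) and that of Agpat2 -11.1 to -2.31 (-6.21). Same-numbered libraries did not deviate together (correlations across genes of -0.321, -0.218 and -0.018), and with the block 2805 genes had an unadjusted p under 0.05. Without WT replicate 3 edgeR called 0 genes (2386 at an unadjusted p under 0.05). With 3 libraries a group, fold changes such as those of Gpd1, Dgat1 and Dgat2 have intervals that include 0 and sizes over 1 on the log2 scale.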
